A study of Mus musculus with 10 samples.

Results

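The 10 genes described here encode the machinery that places, reads and removes methylation at lysine 9 of histone H3 (H3K9). They are the methyltransferase genes Suv39h2, Setdb1, Setdb2, Ehmt1 and Ehmt2, the corepressor gene Trim28, the reader genes Cbx1, Cbx3 and Cbx5, and the demethylase gene Kdm4a. They were taken by name, 10 of the 21938 protein-coding genes annotated on chromosomes 1 to 19, X and Y, and each was examined over its annotated body plus 20 kb on each side. The lists of ChIP-seq summits came from AB17 cells, an immortalized hepatocyte line of the C57BL/6 strain. Every sample carried floxed Arid1a alleles (Arid1a fl/fl) together with SV40 large T antigen and H-Ras V12D, introduced one after the other by viral infection. Wildtype (WT) cells had received the adenovirus Ad-GFP and knockout (KO) cells Ad-Cre, the virus that deletes Arid1a and gives the Arid1a-/- genotype. Arid1a, Brg1, Ctcf and Rad21 were profiled in WT cells only, and the histone marks H3K9me3 and H3K27me3 in both genotypes, which gave 8 lists with 1 library each among the 10 samples (the other 2 were inputs). No replicate exists, so no test was possible, and every difference given here compares single libraries of a single transformed cell line.

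H3K9 methylation is the hallmark of silent heterochromatin. Suv39h2 and Setdb1 trimethylate H3K9, and the Setdb2 protein belongs to the same SET domain family. Ehmt1 (GLP) and Ehmt2 (G9a) form a dimer that places mono- and dimethylation in euchromatin. Trim28 (KAP1) is brought to transposons and other targets by KRAB zinc finger proteins and recruits Setdb1. Cbx5, Cbx1 and Cbx3 encode HP1 alpha, beta and gamma, the chromodomain proteins that bind methylated H3K9, and Kdm4a removes trimethylation. Arid1a and Brg1 are subunits of the SWI/SNF chromatin remodeller, Ctcf is a zinc finger protein at loop anchors, Rad21 is a cohesin subunit, and H3K27me3 is the Polycomb mark.

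To show which DNA lay under the strongest Ctcf summits near these genes, 101 bases of the GRCm38 plus strand centred on each summit were read for the 7 summits whose −log10 q-value reached 10 and that held the letters CCANNAGNNGGC, the middle of the Ctcf recognition sequence, on either strand. The −log10 q-value is the strength MACS2 gave the summit in its own library, so that larger means stronger, and no value under 1.3 was listed. Capitals mark the match, which reads as its reverse complement where it lies on the minus strand. The strongest summit of the set, downstream of Cbx5, is shown last and held no exact match.
Cbx1 Ctcf 63.9, chr11:96784957-96785057 (plus strand): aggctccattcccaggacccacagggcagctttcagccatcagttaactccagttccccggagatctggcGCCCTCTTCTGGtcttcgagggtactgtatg
Cbx5 Ctcf 45.8, chr15:103172642-103172742 (plus strand): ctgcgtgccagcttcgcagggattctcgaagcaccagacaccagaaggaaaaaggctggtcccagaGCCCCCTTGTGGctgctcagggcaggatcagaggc
Ehmt1 Ctcf 34.5, chr2:24852548-24852648 (plus strand): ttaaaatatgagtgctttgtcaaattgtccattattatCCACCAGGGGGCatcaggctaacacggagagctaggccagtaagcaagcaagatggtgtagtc
Cbx1 Ctcf 20.9, chr11:96781486-96781586 (plus strand): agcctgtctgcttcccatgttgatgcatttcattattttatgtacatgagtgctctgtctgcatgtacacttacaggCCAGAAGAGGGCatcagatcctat
Setdb1 Ctcf 19.8, chr3:95349594-95349694 (plus strand): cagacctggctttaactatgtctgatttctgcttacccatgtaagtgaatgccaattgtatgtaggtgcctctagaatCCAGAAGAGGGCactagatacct
Kdm4a Ctcf 13.1, chr4:118171152-118171252 (plus strand): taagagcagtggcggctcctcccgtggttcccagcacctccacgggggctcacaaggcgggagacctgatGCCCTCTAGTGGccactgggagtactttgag
Ehmt2 Ctcf 10.6, chr17:34923050-34923150 (plus strand): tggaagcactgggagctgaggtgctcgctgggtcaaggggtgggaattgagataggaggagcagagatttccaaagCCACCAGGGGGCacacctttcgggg
Cbx5 Ctcf 165, chr15:103182293-103182393 (plus strand): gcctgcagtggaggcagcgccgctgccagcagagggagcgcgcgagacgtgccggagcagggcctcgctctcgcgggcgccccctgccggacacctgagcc

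Of all 101 Ctcf summits in the 10 windows, 14 had the letters within 50 bp, and of the 28 whose −log10 q-value reached 10, 7 did (25.0%). In the whole Ctcf list the letters lay within 50 bp of 14.4% of summits and of 30.9% of those at 10 or more, against 1.08% at positions moved by 2 kb. Both of the members' shares were a little below those of the list. Each of the 7 summits had a Rad21 summit of WT cells nearby, between 6 and 204 bp away.

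RefSeq (GRCm38.p6) listed 13 promoters of 300 bases for the 10 genes, among 32851 in all. They were rich in G and C, with a median GC content of 66.3% (range 52.7 to 82.7%) against 52.7% over all promoters, and held a median of 29 CpG dinucleotides against 7. The GC box GGGCGG, searched on both strands, lay in 10 of the 13 (8 genes, without Setdb2 and Kdm4a) and in 35.7% of all promoters. Of the other letters searched on both strands, none of which contains another, CCAAT lay in 4 promoters (37.4% of all), CCGGAAG of ETS factors in 1, that of Setdb1 (8.86%), and the AP-1 letters TGANTCA in 1, that of Kdm4a (7.81%). TGACGTCA of CREB factors lay in 1, that of Suv39h2 (1.79%), and the E-box CACGTG in 3, of Ehmt2 and Cbx5 (7.15%). Promoters with factor summits nearby and few annotated exon bases are shown for Ehmt2 (both RefSeq starts, 5 and 501 bp downstream of the outermost GENCODE start) and for the inner start of Cbx5 (24464 bp downstream), as the 200 bases before the start on the gene's strand, with GC boxes in capitals.
Ehmt2 promoter, chr17:34898274-34898473 (plus strand): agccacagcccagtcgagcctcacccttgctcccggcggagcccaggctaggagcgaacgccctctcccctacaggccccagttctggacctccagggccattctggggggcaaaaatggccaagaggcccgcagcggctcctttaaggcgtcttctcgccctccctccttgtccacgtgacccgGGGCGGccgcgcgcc
Ehmt2 promoter, chr17:34898770-34898969 (plus strand): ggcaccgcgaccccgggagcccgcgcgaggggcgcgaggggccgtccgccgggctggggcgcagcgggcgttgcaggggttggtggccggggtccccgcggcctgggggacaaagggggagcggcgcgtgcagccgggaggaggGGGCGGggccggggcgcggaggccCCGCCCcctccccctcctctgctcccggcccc
Cbx5 promoter, chr15:103215353-103215552 (minus strand): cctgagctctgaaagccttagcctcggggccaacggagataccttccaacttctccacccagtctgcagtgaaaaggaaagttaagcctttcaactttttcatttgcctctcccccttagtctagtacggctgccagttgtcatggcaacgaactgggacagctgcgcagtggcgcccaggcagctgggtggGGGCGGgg

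Next, the summits of the 8 lists were placed on the 10 windows, which spanned 793 kb in all and held 581 summits. The windows contained 93 Arid1a, 91 Brg1, 101 Ctcf and 108 Rad21 summits, with 117 H3K9me3 summits in WT and 38 in KO cells and 19 and 14 H3K27me3 summits in the respective genotypes. A window held a median of 9.5 Arid1a, 6.5 Brg1, 10 Ctcf and 9 Rad21 summits, against medians of 2, 3, 5 and 5 over all protein-coding genes. As the members' windows were also longer (median 72.8 kb, against 57.4 kb), densities were compared. The members' median density was 1.08 Arid1a summits per 10 kb against 0.329 over all genes, 0.868 against 0.394 for Brg1, 1.23 against 0.642 for Ctcf and 1.02 against 0.672 for Rad21. The H3K9me3 density had a median of 1.54 per 10 kb in WT and 0.684 in KO cells, against 0.708 and 0.384 over all genes. For H3K27me3 the members' median was 0 in both genotypes, against 0.130 in WT and 0 in KO cells over all genes. No summit of that mark lay in 6 of the 10 windows, while 55.9% of all genes had one in either genotype.

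**Figure D1:**
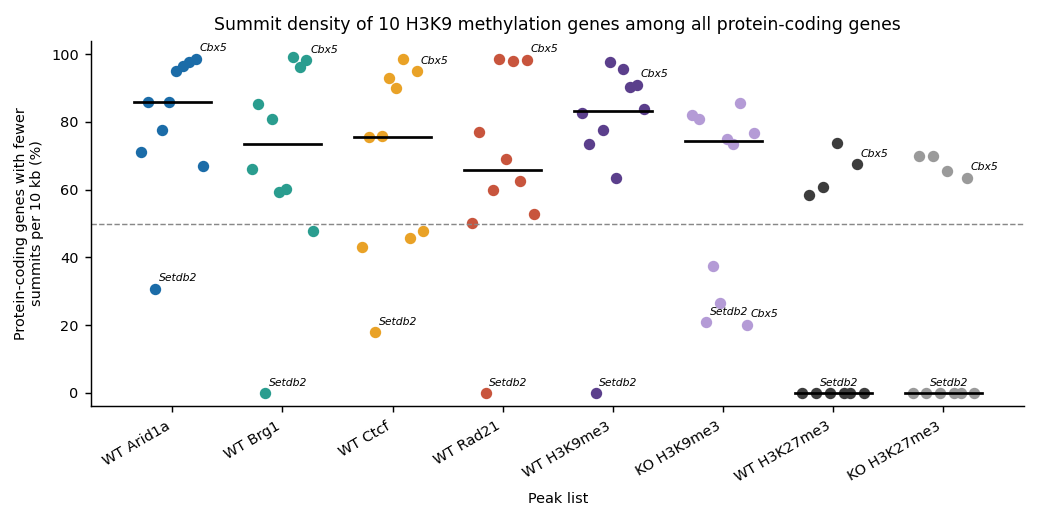
Rank of each gene's summit density among 21938 protein-coding genes, by peak list. The vertical axis gives the percentage of protein-coding genes with fewer summits per 10 kb of window, each point is 1 of the 10 genes, the black bar is their median and the dashed line marks 50%. Cbx5 sat at 98.7% for Arid1a and 20.1% for KO H3K9me3, while Setdb2 was at 0% for Brg1, Rad21 and WT H3K9me3.

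The density was above the all-gene median at 9 of the 10 genes for Arid1a, 8 for Brg1, 6 for Ctcf, 9 for Rad21 and 9 for WT H3K9me3, and at 6 for KO H3K9me3. Set against the median of the genes on the same chromosome, these counts were 10, 9, 7, 7, 9 and 6. The members differed widely among themselves. Cbx5 and Cbx1 lay at 95.0% or higher in the ranking of all genes for each of the 4 factors, and Setdb2 lay at 30.8% for Arid1a, 17.9% for Ctcf and 0% for Brg1 and Rad21.

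**Figure D2:**
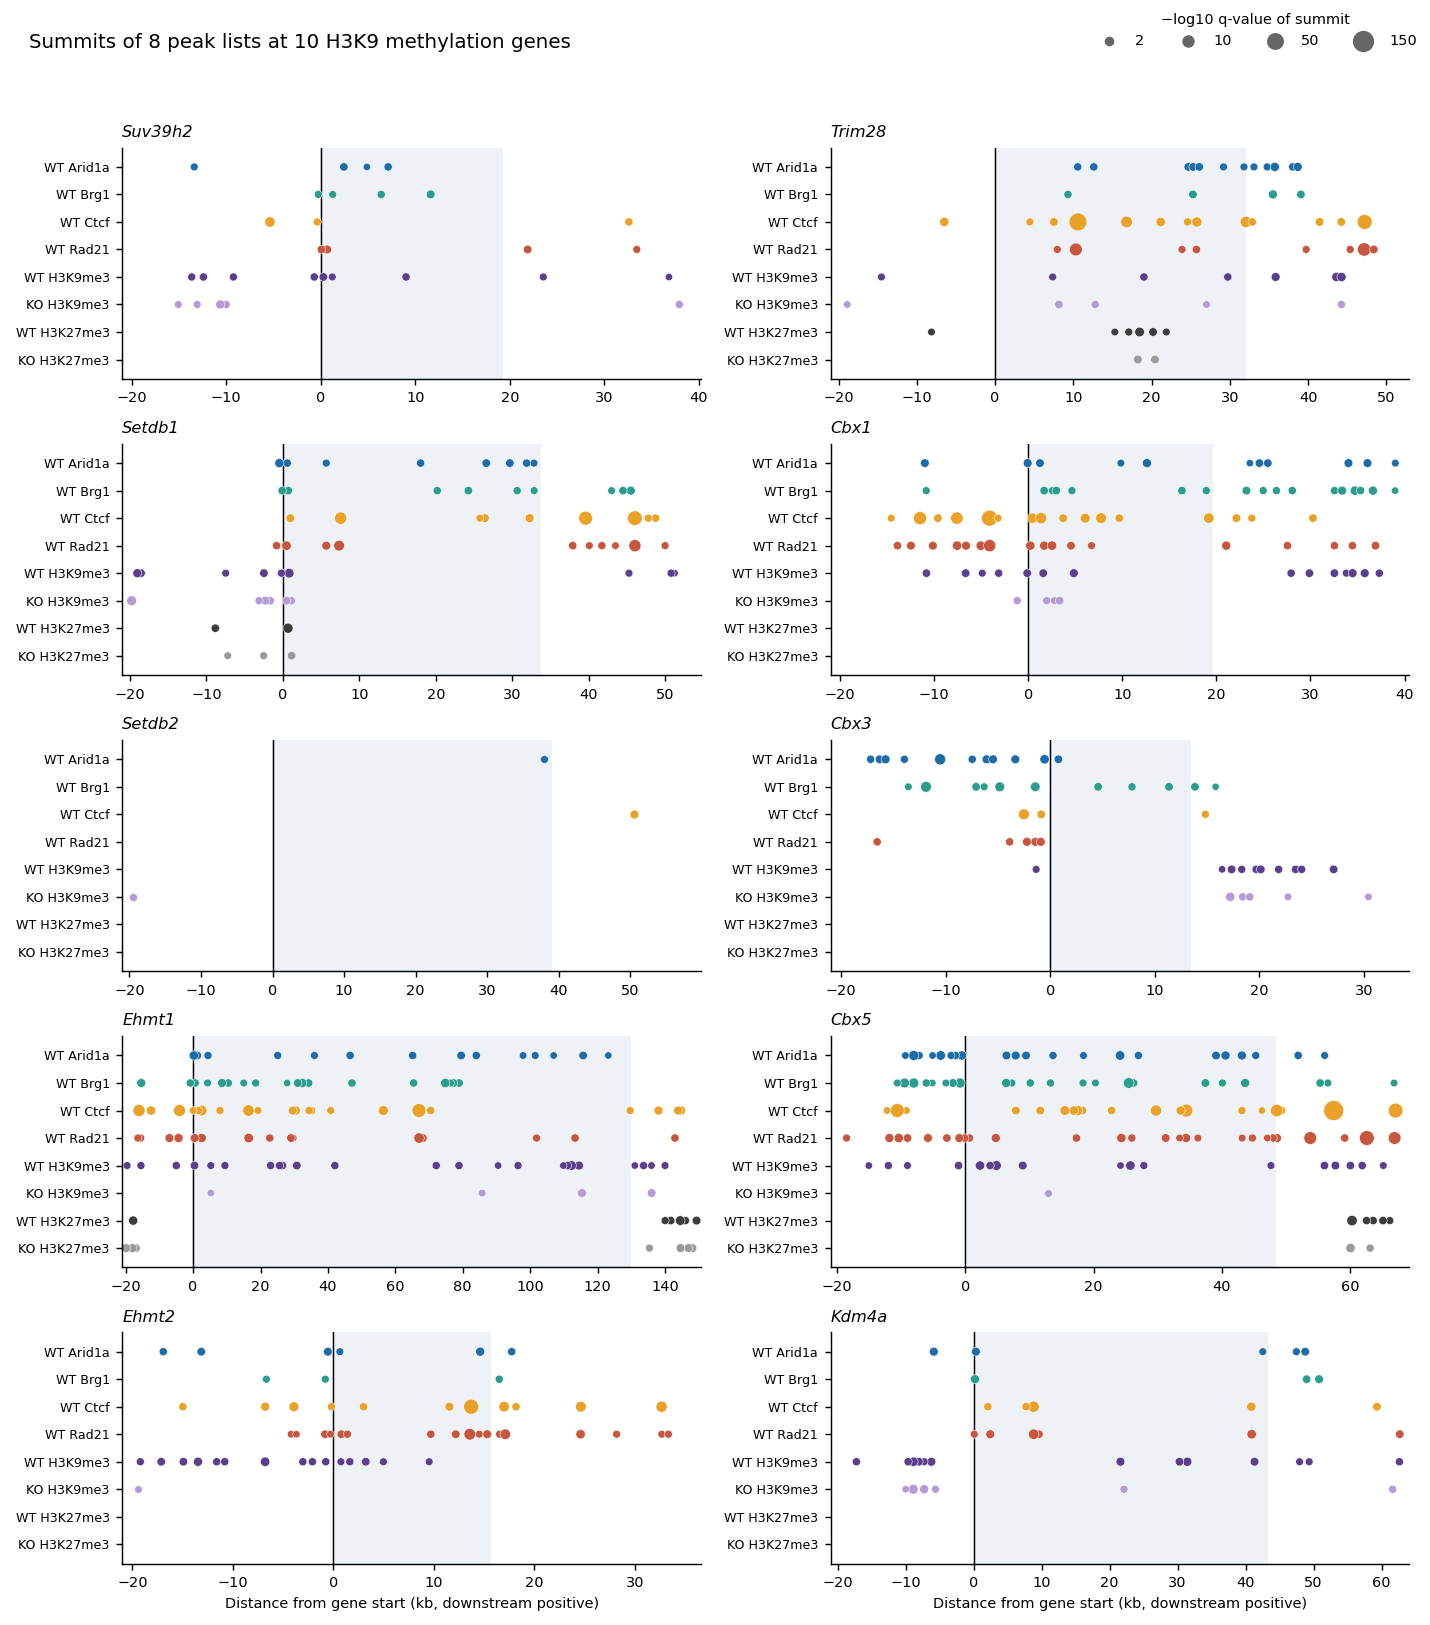
Map of all 581 summits in the windows of the 10 genes. The horizontal axis is the distance from the gene start in kb with downstream positive, the shaded box is the gene body, rows are the 8 peak lists, and the point size grows with the −log10 q-value. The H3K9me3 row of KO cells holds 1 point at Ehmt2 and 1 at Cbx5, where the WT row holds 15 and 17.

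Then, summits within 2 kb of the gene start, taken as the outermost GENCODE start, were examined. Arid1a lay at 7 of the 10 starts (35.2% of all genes had one), Brg1 at 8 (39.6%), Ctcf at 6 (42.5%) and Rad21 at 8 (50.6%). All 4 factors met at the starts of Setdb1, Ehmt1, Ehmt2, Cbx1 and Cbx3, which makes 5 of 10 against 16.6% of all genes. None of the 4 lay at the starts of Setdb2 and Trim28, 2 of 10 against 34.6%. With RefSeq starts all 4 factors also lay at 5 genes, but Trim28 was among them and Cbx1, without Brg1 there, was not. With 10 genes 1 gene is 10 percentage points. The members had been named as a set without a rule on binding, but with earlier results of these data known.

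**Figure D3:**
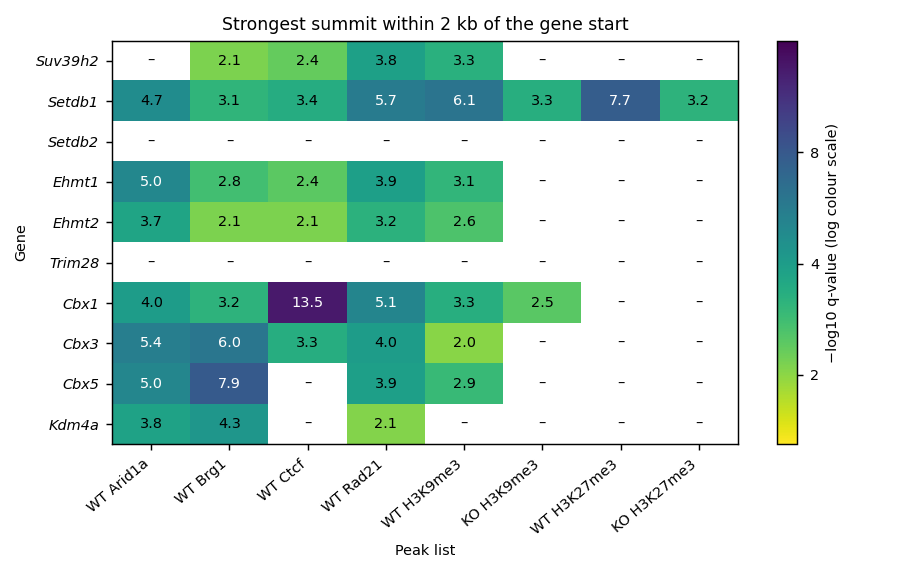
Strongest summit within 2 kb of each gene start, by peak list. Numbers and colours (log colour scale) give the −log10 q-value and a dash marks no summit. Values compare within a column only: Ctcf reached 13.5 at Cbx1 and was under 5 at the other starts that had it, and Setdb1 is the only one of the 10 genes with H3K27me3 at its start.

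No Arid1a, Brg1 or Rad21 summit at a start reached a −log10 q-value of 10. The strongest Arid1a summit at a start was at Cbx3 (−log10 q-value 5.44, 547 bp upstream), followed by Cbx5 (5.03) and Ehmt1 (5.01). For Brg1 the order was Cbx5 (7.88), Cbx3 (5.96) and Kdm4a (4.28), and for Rad21 Setdb1 (5.66), Cbx1 (5.12) and Cbx3 (4.01). The values have no error, since each comes from 1 library, and can be compared only within a list. Several starts are shared. The start of Cbx5 lies 616 bp from that of Hnrnpa1 and the start of Cbx3 466 bp from that of Hnrnpa2b1, both genes of RNA-binding proteins, while Ehmt2 starts 204 bp from the complement gene C2 and Setdb2 88 bp from Cab39l. Summits there cannot be assigned to one gene of the pair.

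Among the methyltransferases, Suv39h2 (chromosome 2, 3455815 to 3475031, minus strand) had 4 Arid1a, 4 Brg1, 3 Ctcf and 4 Rad21 summits. Its start carried Brg1 (up to 2.12), Ctcf (2.35) and Rad21 (up to 3.83, 668 bp downstream, in an exon), and the nearest Arid1a summit lay 2435 bp downstream (2.95). The strongest Ctcf summit (8.78) was 5379 bp upstream in intergenic DNA. It had 9 H3K9me3 summits in WT and 5 in KO cells, and no H3K27me3. The 3 H3K9me3 summits at its start in WT cells, 272 and 1214 bp downstream and 696 bp upstream (3.26, 1.97 and 2.62), had no KO summit within that start window, while 4 of the 5 KO summits lay in the upstream flank, the strongest 10637 bp upstream (4.53).

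Setdb1 (chromosome 3, 95323525 to 95357202, minus strand) had 8 Arid1a, 9 Brg1, 9 Ctcf and 10 Rad21 summits. It was the member with both marks at its start in both genotypes. H3K9me3 reached 6.10 in WT cells 823 bp downstream of the start and 3.32 in KO cells 472 bp downstream, and H3K27me3 reached 7.66 in WT cells 671 bp downstream and 3.16 in KO cells 1137 bp downstream. Over the window H3K9me3 gave 9 summits in WT and 6 in KO cells, and each of the 6 KO summits had a WT summit within 1 kb. The strongest KO summit (6.95) lay 19779 bp upstream, 737 bp from a WT summit (4.25). These values compare only within a list, not between WT and KO cells. H3K27me3 gave 2 and 3. The stretch just inside the start is also annotated as Gm37500, so the summits cannot be tied to one of the transcripts. The strongest Ctcf summit (44.5) lay 46037 bp downstream, in an intron of 6330562C20Rik, with a Rad21 summit (18.7) 4 bp away.

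Setdb2 (chromosome 14, 59402009 to 59440884, minus strand) was the least occupied member. Its 78.9 kb window held 1 Arid1a summit (2.13) in its body, 1 Ctcf summit (3.86) in the downstream flank and 1 KO H3K9me3 summit (2.47) in the upstream flank, and no summit of the other 5 lists. Chromosome 14 was poor in these lists as a whole: 56.1% of its gene starts had none of the 4 factors and 2.22% had all 4. Its median gene had 0 Arid1a and 0 Brg1 summits per 10 kb.

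Ehmt1 (chromosome 2, 24789928 to 24919614, minus strand), the longest member at 130 kb, had 14 Arid1a, 18 Brg1, 21 Ctcf and 15 Rad21 summits. All 4 factors lay within 2 kb of its start, and 12 of the 14 Arid1a and 15 of the 18 Brg1 summits lay in the gene body beyond it. The strongest Ctcf summit (34.5, the Ehmt1 sequence above) sat in an intron 67016 bp downstream with a Rad21 summit (8.99) 41 bp away. H3K9me3 gave 23 summits in WT and 4 in KO cells, a KO to WT ratio of 0.174 (exact 95% interval 0.0437 to 0.509). In WT cells 4 summits lay 109868 to 114502 bp downstream of the start, up to 6.43, near the 3' end of the gene, and the strongest KO summit (4.19) lay at 115386 bp. H3K27me3 gave 6 and 7 summits, all in the flanks.

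Ehmt2 (chromosome 17, 34898469 to 34914052, plus strand) had 6 Arid1a, 3 Brg1, 11 Ctcf and 17 Rad21 summits. Its Rad21 density was above that of 98.7% of genes and its WT H3K9me3 density above that of 97.7%. H3K9me3 gave 15 summits in WT and 1 in KO cells (ratio 0.0667, 0.00158 to 0.433). In WT cells 9 of the 15 lay in the upstream flank over the neighbours C2 and Zbtb12, the strongest (5.59) 6787 bp upstream, and 3 lay at the start. The single KO summit (1.88) was 19408 bp upstream. The strongest Ctcf summit (49.8) lay in an intron 13721 bp downstream, 142 bp from a Rad21 summit (15.5) and 2276 bp from the start of Slc44a4, a choline transporter family gene.

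Trim28 (chromosome 7, plus strand) needed both annotations. GENCODE gives the gene from 12999114 to 13031035 because 1 transcript begins far upstream, 922 bp from the start of Slc27a5, a gene of bile acid conjugation in hepatocytes, and no summit of any list lay within 2 kb of that outermost start. The RefSeq start, at 13024152, lies 25038 bp further downstream and carried 3 Arid1a (strongest 3.33), 1 Brg1 (3.37), 2 Ctcf (7.72) and 2 Rad21 (2.79) summits and 1 KO H3K9me3 summit (1.88). The window as a whole had 12 Arid1a, 4 Brg1, 13 Ctcf and 8 Rad21 summits. Its strongest Ctcf summit (105) lay in an exon of Zbtb45, 330 bp from the start of that gene, with Arid1a 36 bp and Rad21 (24.5) 272 bp away. H3K9me3 gave 7 summits in WT and 5 in KO cells, of which the 2 strongest in WT (4.79 each) lay in an exon of Mzf1. H3K27me3 gave 6 and 2, and both KO summits lay near WT ones, 18241 and 20423 bp downstream against 18460 and 20176 bp.

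Of the HP1 genes, Cbx1 (chromosome 11, 96789127 to 96808640, plus strand) had 11 Arid1a, 17 Brg1, 16 Ctcf and 17 Rad21 summits and a Brg1 density above that of 99.2% of genes. Its outermost GENCODE start had all 4 factors, with Ctcf at 13.5 in an intron 1360 bp downstream. The strongest Ctcf summit (63.9) was 4120 bp upstream in intergenic DNA, 19 bp from a Rad21 summit (19.8), and its sequence heads the lines above. H3K9me3 gave 14 summits in WT and 4 in KO cells (0.286, 0.0685 to 0.910). The 4 KO summits lay from 1176 bp upstream to 3327 bp downstream of the start. In WT cells 7 lay 27946 to 37321 bp downstream, in and beside Nfe2l1, where KO cells had none. No H3K27me3 was listed.

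Cbx3 (chromosome 6, 51470360 to 51483704, plus strand) held the strongest Arid1a and Brg1 summits of the 10 windows. The Arid1a summit (12.4) lay 10536 bp upstream in intergenic DNA and the Brg1 summit (11.1) 11886 bp upstream in an exon of Nfe2l3, a transcription factor gene. In all it had 11 Arid1a, 11 Brg1, 3 Ctcf and 5 Rad21 summits, and 9 of the 11 Arid1a summits lay in the upstream flank, over and beyond Hnrnpa2b1. H3K9me3 gave 10 summits in WT and 5 in KO cells. Apart from 1 WT summit 1353 bp upstream of the start (2.03), all of these lay downstream of the gene, 16433 to 30430 bp from its start, where the strongest were at 17348 and 20135 bp in WT (3.31 each) and 17212 bp in KO cells (5.30). No H3K27me3 was listed.

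Cbx5 (chromosome 15, 103191544 to 103239816, minus strand) had 21 Arid1a, 22 Brg1, 19 Ctcf and 26 Rad21 summits. Its Arid1a density, 2.38 per 10 kb, was the highest of the 10 genes, while Cbx1 was denser in Brg1 (2.86 against 2.49) and Ctcf (2.69 against 2.15). Brg1 reached 7.88 at the start, 824 bp upstream over Hnrnpa1. Another Brg1 summit (10.2) lay in an intron 25491 bp downstream and an Arid1a summit (5.76) 24145 bp downstream, on either side of the inner RefSeq start whose promoter is printed above. H3K9me3 gave 17 summits in WT and 1 in KO cells (0.0588, 0.00141 to 0.375). The strongest WT summit (6.69) was intronic, 4849 bp downstream of the start, with others at 2293 bp (5.34) and, next to the inner start, at 25754 bp (5.47), and the KO summit (2.04) lay at 12875 bp. The strongest Ctcf summit of all windows (165) lay 57473 bp downstream in intergenic DNA, with its nearest Rad21 summit 1715 bp away, and the strongest Rad21 summit (46.5) at 62644 bp. H3K27me3 lay in the same downstream flank, with 5 WT summits from 60329 to 66231 bp (up to 9.01) and 2 KO summits at 60094 bp (5.17) and 63151 bp (2.49).

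The demethylase gene Kdm4a (chromosome 4, 118136957 to 118180043, minus strand) had 5 Arid1a, 3 Brg1, 5 Ctcf and 6 Rad21 summits. Arid1a (3.76), Brg1 (4.28) and Rad21 (2.07) lay 345, 205 and 110 bp downstream of the start. H3K9me3 gave 13 summits in WT and 6 in KO cells and none at the start. A group of summits upstream was listed in both genotypes. The strongest WT summit, 8848 bp upstream (5.59), and the strongest KO summit, 8866 bp upstream (6.95), were nearly at the same place, and 5 WT and 4 KO summits lay between 5602 and 9977 bp upstream. Its strongest Ctcf summit (13.1) lay 8841 bp downstream in an intron with a Rad21 summit (9.32) 6 bp away. No H3K27me3 was listed.

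To address whether the mark differed between genotypes at these genes, H3K9me3 summits were counted in both lists. There were 117 in WT and 38 in KO cells, a KO to WT ratio of 0.325 (exact 95% interval 0.219 to 0.472, counting error only). More WT than KO summits were found at 9 of the 10 genes, all except Setdb2, and 60.0% of all protein-coding genes had more in WT. At least 2 times as many were found at 6 genes (Ehmt1, Ehmt2, Cbx1, Cbx3, Cbx5 and Kdm4a), against 44.0% of genes. Among windows with 10 or more H3K9me3 summits of both genotypes together, 9 of 9 members and 72.4% of 9049 genes had more in WT.

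**Figure D4:**
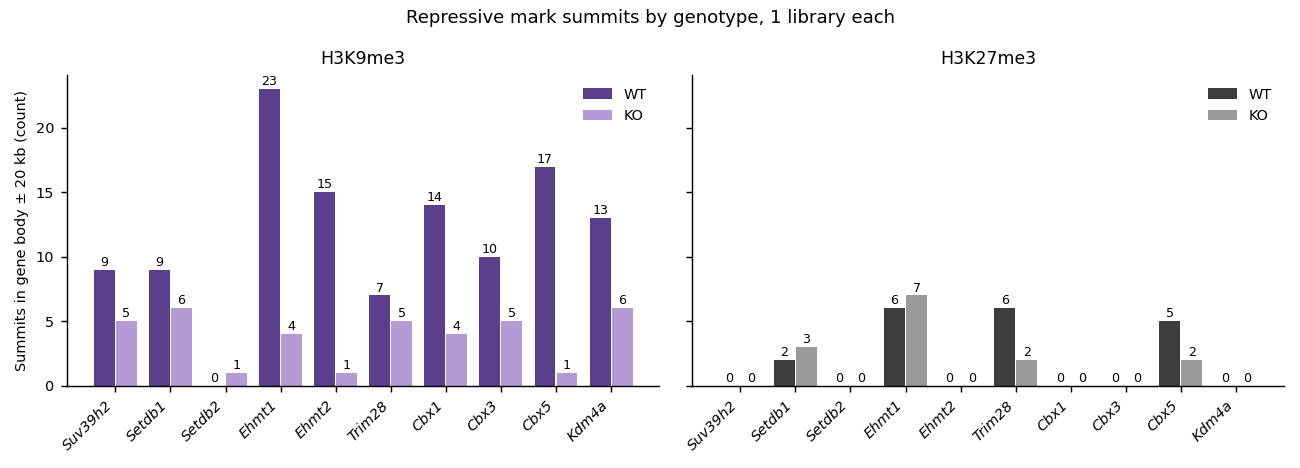
Number of H3K9me3 (left) and H3K27me3 (right) summits in the window of each gene, in WT and KO cells. Bars are counts from 1 library per genotype, so they carry no error bar. H3K9me3 summits numbered 23 in WT and 4 in KO cells at Ehmt1 and 17 and 1 at Cbx5, while H3K27me3 was listed at 4 of the 10 genes.

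The lists themselves set the background. The KO list held 134976 H3K9me3 summits and the WT list 143835, a ratio of 0.938, but summed over the windows of all protein-coding genes, where neighbouring windows overlap and share summits, the ratio was 0.651. It was 0.458 over gene windows on chromosome 11, the chromosome of Cbx1, 0.544 on chromosome 15 with Cbx5, and 0.984 on chromosome 14 with Setdb2. The ratio over the 10 genes lay below each of these values. By place it was 0.385 at the starts (13 WT and 5 KO summits, 0.107 to 1.15), 0.286 in the bodies (0.126 to 0.590), 0.424 in the upstream flanks (0.210 to 0.815) and 0.250 in the downstream flanks (0.106 to 0.529). For Suv39h2, Setdb1, Trim28, Cbx3 and Kdm4a alone the interval included 1. The intervals are too narrow to the extent that a broad domain gives several summits, and a difference in library depth or enrichment between the genotypes cannot be told apart from a difference in the mark.

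At the starts, 7 members had H3K9me3 in WT cells (38.7% of all genes) and 2, Setdb1 and Cbx1, had it in KO cells (14.0%). WT but no KO H3K9me3 was found at the starts of Suv39h2, Ehmt1, Ehmt2, Cbx3 and Cbx5, 5 of 10 against 31.4%. The KO summits were mostly at places also listed in WT cells: 24 of the 38 had a WT summit within 1 kb (63.2%, 46.0 to 78.2), against 33.3% in the whole KO list. In the other direction 27 of the 117 WT summits had a KO summit within 1 kb (23.1%, 15.8 to 31.8), against 31.1% in the whole WT list. Each share depends on how many summits the other list holds there.

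H3K27me3 was sparse. It was listed in either genotype at Setdb1, Ehmt1, Trim28 and Cbx5, 4 of 10 windows against 55.9% of all genes, and at the start of Setdb1 in both genotypes, 1 of 10 against 23.4% in WT and 19.8% in KO cells. The 19 WT and 14 KO summits gave a ratio of 0.737 (0.342 to 1.55), with 0.785 over the whole lists. Of the 19 WT summits, 9 had a KO summit within 1 kb (47.4%, against 54.4% in the whole list), and 10 of the 14 KO summits had a WT summit within 1 kb (71.4%, against 68.3%).

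To address how closely the factors lay to each other, summits with one of another list within 1 kb were counted. An Arid1a summit lay within 1 kb of 48 of the 91 Brg1 summits (52.7%, 42.0 to 63.3), against 27.5% of the whole Brg1 list, and 37 of the 108 Rad21 summits had Brg1 within 1 kb (34.3%, 25.4 to 44.0), against 22.2%. Rad21 and Ctcf lay near each other about as often as in their lists, with 58.3% of Rad21 summits near Ctcf (48.5 to 67.7, against 52.0%) and 55.4% of Ctcf summits near Rad21 (45.2 to 65.3, against 55.7%). Chains of summits at most 1 kb apart with at least 3 of the 4 factors were found at 9 of the 10 members, against 56.9% of all protein-coding genes. They numbered 30, of which 11 held all 4 factors, against 30.5% of 18984 such chains in the genome. Of the 30, 16 had a WT H3K9me3 summit within 1 kb (47.7% of chains in the genome) and 3 a KO one (14.4%). The windows were also denser in each factor than the median gene, and the part of that density in these shares was not tested.

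**Figure D5:**
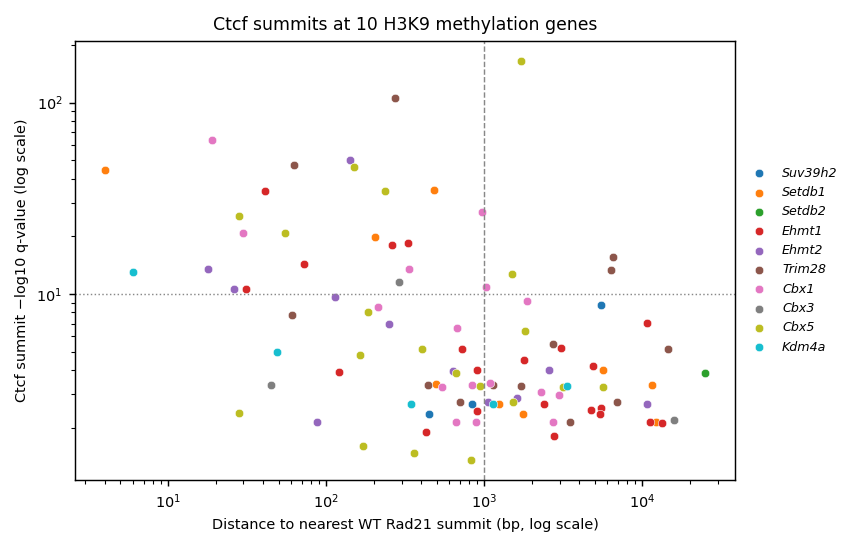
Strength of the 101 Ctcf summits at the 10 genes against the distance to the nearest Rad21 summit, both in WT cells and on log axes. Points are coloured by gene, the dashed line marks 1 kb and the dotted line a −log10 q-value of 10. Of the 28 summits above the dotted line, 23 lie left of the dashed one, and the strongest, at Cbx5 (165), lies right of it.

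Next, Ctcf summits were examined by strength. Of the 28 Ctcf summits whose −log10 q-value reached 10, 1 lay within 2 kb of a member's start, that of Cbx1. The start regions make up 5.04% of the windows. A further 4 lay within 2 kb of the start of another protein-coding gene, among them the summit at Zbtb45. A Rad21 summit lay within 1 kb of 23 of the 28 (82.1%, 63.1 to 93.9), against 94.2% in the whole list at that strength. Among the 58 Ctcf summits under 5, the count was 25 (43.1%, 30.2 to 56.8), against 37.1% in the list. The 5 strong summits with no Rad21 within 1 kb lay at Cbx5 (165 and 12.8), Trim28 (15.5 and 13.3) and Cbx1 (10.8, with Rad21 1019 bp away).

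In WT cells H3K9me3 summits often lay near the factors. Of the 117, 68 had a summit of at least 1 factor within 1 kb (58.1%, 48.6 to 67.2), against 35.9% of the whole list. In KO cells, where the factors were not profiled, 15 of the 38 lay within 1 kb of a factor summit of WT cells (39.5%, 24.0 to 56.6), against 19.98%. Without the mark summits next to factors, 49 WT and 23 KO summits were left, a ratio of 0.469 (0.273 to 0.785). None of the members' starts kept H3K9me3 in WT cells and 1 did in KO cells. Each start with WT H3K9me3 had 3 or 4 of the factors within 2 kb, so this filter was bound to take many mark summits there. The ratio and the share of starts over all genes were not computed under this filter, so neither value has a background. What part the neighbouring factor summits have in the mark's counts was not tested. The windows were denser in each factor than the median gene, and the part of that density in the shares of 58.1% and 39.5% was not tested either.

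Of 24 other genes of the same pathway, all were found, and 14 had more H3K9me3 summits in WT, 6 more in KO and 4 equal numbers. That is near the share of all protein-coding genes with more in WT, 60.0%. The 24 genes had 232 WT and 137 KO summits in all (0.591, 0.475 to 0.733). The ratio over the windows of all protein-coding genes, 0.651, lay inside that interval. The largest excess in WT was at Prdm16, a SET domain gene (23 against 4), and Kdm1a, the demethylase LSD1 (16 against 4), and in KO at Pphln1 (10 against 7) and Mecom (31 against 29). At the starts of the 24, Arid1a lay at 13 (35.2% of all genes), Brg1 at 14 (39.6%), Ctcf at 14 (42.5%) and Rad21 at 17 (50.6%). All 4 factors lay at 9 (16.6%). H3K9me3 lay at 13 in WT (38.7% of all genes) and 8 in KO cells (14.0%), and H3K27me3 at 4 (23.4%) and 3 (19.8%). The lists hold no expression values, so the hepatocyte label could not be checked by expression. Of 6 hepatocyte marker genes (Alb, Apoa1, Ttr, Hnf4a, Krt8 and Krt18), Arid1a lay at 1 start (35.2% of all genes) and Brg1 at 2 (39.6%). Of 6 markers of other cell types (Col1a1, Vim, Des, Pecam1, Cdh5 and Ptprc) they lay at 2 and 3. All 4 factors lay at 1 hepatocyte marker start and at 2 of the others. H3K27me3 lay at 1 hepatocyte marker start in each genotype, that of Hnf4a, and at 2 of the others in WT and 1 in KO cells.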

How the data were processed

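ChIP-seq was performed in AB17 cells with 1 library per antibody and genotype. Per the study's methods, bowtie2 was used by the authors for alignment to mm10, SAMtools to discard reads of low quality, Picard to discard duplicates, and MACS2 with default settings to call peaks over the matching input. Versions were not stated and no pooling was named. Each deposited list gave 1 bp summits with a −log10 q-value, a unit read from the values because the lists have no header and no value lies under 1.3. Read depth is unknown from the lists, so the number and strength of summits also follow depth and enrichment.

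Samples were grouped by genotype and antibody from their titles. Positions are 1-based in mm10 (GRCm38), with GENCODE vM21 genes and RefSeq promoter sequences of GRCm38.p6. A summit within 2 kb of the outermost gene start was counted as start, then body, then flank, and summits at most 1 kb apart as near. Shares and KO to WT ratios carry exact Clopper-Pearson 95% intervals, which cover counting error only. The counting was tested on simulated lists and run with Python 3.11.15, numpy 2.4.6, pandas 2.3.3 and scipy 1.17.1. The members and lists of genes were chosen with earlier results of these data known. All 10 members are described, with selected strong summits of each window and not the strongest summit of every list. A strong summit that goes unmentioned may therefore still be listed, and the map of all summits in the windows shows each one. Neighbours whose starts lie within 2 kb are named. Of the 24 other pathway genes, the 2 with the largest difference in H3K9me3 summits in each direction are named. Alternatives changed the strength cut, window, distances, gene models and list sizes. The 2 inputs entered only through peak calling.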

Additional observations from a re-analysis of the deposited data

How the results depend on the processing

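Of 96 alternative values, 73 stayed within the interval or within 1.5 times the value given and 23 moved. Only the H3K9me3 ratio, whose interval excluded 1, could be labelled reversed, and 0 of its 20 alternatives were. Counts, shares and the H3K27me3 ratio could not receive that label. The KO to WT ratio of H3K9me3 summits stayed within its interval in all 20 alternatives (0.286 to 0.469), among them leaving out each gene in turn (chosen after seeing the data, as were RefSeq gene models). The ratio of H3K27me3 summits became 0.25 with only summits whose −log10 q-value reached 5, where 4 WT and 1 KO summits were left, and 1.29 at 3 or more. With summits within 3 kb merged it was 1.125. The 1.29 and the 1.125 lay above 1 but inside the interval, and were counted as unchanged. Genes with more WT than KO H3K9me3 summits numbered 3 at 5 or more and 5 in gene bodies only. At 3 or more, Brg1 lay at 5 starts, Ctcf at 3, all 4 factors at 3, WT H3K9me3 at 4 and KO H3K9me3 at 1. At 5 or more, Arid1a lay at 3 starts, Brg1 at 2, Ctcf at 1, Rad21 at 2, all 4 factors at 0, WT H3K9me3 at 1 and KO H3K9me3 at 0. Within 1 kb of the start, all 4 factors lay at 3 and KO H3K9me3 at 1, and with any annotated transcript start all 4 lay at 9. Without mark summits within 1 kb of a factor, WT H3K9me3 lay at 0 starts and KO H3K9me3 at 1, with no share of all genes computed. The share of WT H3K9me3 summits with a KO summit nearby was 14.3% at 5 or more and in gene bodies only, and 10.3% within 500 bp. Fewer summits are counted at stricter cuts by construction. No paired analysis was possible because each group has 1 library and no test was made. Depth limits every absent summit, which may lie under the threshold of its library.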

Other observations

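By place, the H3K9me3 summits of Cbx1 numbered 2 in WT and 2 in KO cells at the start, 1 and 2 in the body, 4 and 0 in the upstream flank, and 7 and 0 in the downstream flank. Those of Cbx3 numbered 1 and 0 at the start and 9 and 5 in the downstream flank, and those of Cbx5 1 and 0 at the start, 8 and 1 in the body, 3 and 0 in the upstream flank, and 5 and 0 in the downstream flank. Differences in place between the genotypes were not tested, since each has 1 library.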
